A study of Mus musculus with 24 samples.

Results

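Voltage-gated calcium channels were followed through 10 of their genes, among 55177 genes annotated in all, in cultured cortical neurons of the mouse. The genes were chosen by symbol. They are 8 genes for the pore-forming alpha1 subunit (Cacna1a, Cacna1b, Cacna1c, Cacna1d, Cacna1e, Cacna1g, Cacna1h and Cacna1i) and 2 genes for the auxiliary alpha2delta subunit (Cacna2d1 and Cacna2d3). All 10 had enough counts to be tested at both culture ages.

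On GRCm38 the called genes of the comparisons are Cacna1a (chr8:84388440-84640246, plus strand), Cacna1c (chr6:118587240-119196418, minus), Cacna1d (chr14:30039939-30491455, minus), Cacna1e (chr1:154390731-154884501, minus), Cacna1g (chr11:94408391-94474198, minus), Cacna2d1 (chr5:15934691-16374511, plus) and Cacna2d3 (chr14:28904943-29721864, minus). Exons of Cacna1a and Cacna1h overlap those of Gm16183 and Tpsg1 on the opposite strand, which held 1 to 25 and 0 to 10 counts per library.

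A voltage-gated calcium channel opens when the membrane depolarizes and lets calcium into the cell. In a neuron that calcium releases transmitter at the terminal and, in the soma and dendrites, signals to the nucleus. The alpha1 subunit forms the pore and sets the class of current: Cacna1a carries P/Q-type, Cacna1b N-type, Cacna1c and Cacna1d L-type and Cacna1e R-type current, all at high voltage, and Cacna1g, Cacna1h and Cacna1i carry the low-voltage T-type current. The alpha2delta subunits assist trafficking of high-voltage channels to the membrane, and Cacna2d1 encodes the binding site of gabapentin. L-type channels are known for coupling depolarization to transcription of early-response genes.

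The series holds 24 libraries of neurons from cortex of embryos at embryonic day 16.5. Each culture was silenced overnight with 1 µM tetrodotoxin, a blocker of sodium channels, and 100 µM D-AP5, an antagonist of NMDA receptors. It was then left resting or depolarized with 50 mM KCl for 30 min. Wild-type cultures at 7 days in vitro (DIV7) received 0.1% DMSO, with 2 resting and 2 KCl libraries. Cultures at DIV18 either had a guide RNA without a target (non-targeting, NT; 2 libraries at rest and 2 under KCl) or were knocked out for Smarcc2, a subunit of BAF chromatin remodelling complexes. The knockout (KO) cultures carried an empty vector (3 resting, 3 KCl), wild-type Smarcc2 (WT, 2 resting, 3 KCl), Smarcc2 with the substitution S586E (3 resting only) or with S586A (2 KCl only). NT cultures are labelled with a guide and no vector, so guide and vector both separate them from the other DIV18 groups. Per the labels' protocols the cortex of each embryo was a biological replicate. The culture was bulk material, so fewer cells of a type and less RNA per cell cannot be told apart.

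Smarcc2 was at 237 and 265 CPM (counts scaled to library size) in the resting NT libraries and at 47.1 to 64.1 CPM in the resting KO libraries with vector, which did not overlap. In KO with WT it was at 816 and 756 CPM at rest and at 737 to 1089 CPM under KCl. With S586E it was at 1164 to 1276 CPM at rest, and with S586A at 1340 and 1303 CPM under KCl. Each addback thus lay above NT, and each substitution above WT, with no overlap. The part of these levels in the comparisons of constructs was not tested. Fos, an early-response gene that checks the stimulus, was at 3.65 and 4.47 CPM at rest and at 598 and 618 CPM under KCl at DIV7. At DIV18 it was at 2.75 to 8.34 CPM in resting libraries and at 32.7 to 197 CPM in KCl libraries. Summed neuron markers (6 genes such as Map2 and Snap25) were at 4886 to 5022 CPM at DIV7. In resting NT libraries they were at 3525 and 3578 CPM, beside 1363 and 1604 CPM for 6 astrocyte markers. Library totals were 24536056 to 30135576 estimated counts at DIV7 and 14510199 to 24024959 at DIV18.

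Promoter sequence was at hand for 7 of the 10 genes. Windows of Cacna1e, also called at DIV7, of Cacna1d at its upstream start and of Cacna1c at its most downstream start are not shown. The 4 windows shown belong to genes called under KCl at DIV7. They are the 250 bases before RefSeq starts of Cacna2d1 (chr5:15934441-15934690, plus strand), of Cacna1c at its upstream start (chr6:119196410-119196659, minus strand) and its internal start (chr6:119108496-119108745, minus strand), and of Cacna1d at its internal start (chr14:30353487-30353736, minus strand), on GRCm38.p6. Each is written 5′ to 3′ on the strand of the gene, with the letters TGACG, the CRE half-site, in capitals where found on either strand.
Cacna2d1: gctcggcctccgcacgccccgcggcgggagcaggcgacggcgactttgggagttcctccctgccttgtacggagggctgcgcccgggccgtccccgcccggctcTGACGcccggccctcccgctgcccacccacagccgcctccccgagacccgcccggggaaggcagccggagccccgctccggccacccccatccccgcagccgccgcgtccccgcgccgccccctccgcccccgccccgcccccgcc
Cacna1c upstream: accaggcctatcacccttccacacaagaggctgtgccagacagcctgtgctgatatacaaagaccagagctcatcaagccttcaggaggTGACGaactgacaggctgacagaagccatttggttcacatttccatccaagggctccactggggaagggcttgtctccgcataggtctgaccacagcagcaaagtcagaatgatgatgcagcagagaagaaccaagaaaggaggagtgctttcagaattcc
Cacna1c internal: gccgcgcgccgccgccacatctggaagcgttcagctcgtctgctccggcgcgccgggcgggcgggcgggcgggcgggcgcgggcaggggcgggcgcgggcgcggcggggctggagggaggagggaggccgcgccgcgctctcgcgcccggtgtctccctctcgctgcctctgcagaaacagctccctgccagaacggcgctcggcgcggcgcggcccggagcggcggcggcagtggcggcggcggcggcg
Cacna1d internal: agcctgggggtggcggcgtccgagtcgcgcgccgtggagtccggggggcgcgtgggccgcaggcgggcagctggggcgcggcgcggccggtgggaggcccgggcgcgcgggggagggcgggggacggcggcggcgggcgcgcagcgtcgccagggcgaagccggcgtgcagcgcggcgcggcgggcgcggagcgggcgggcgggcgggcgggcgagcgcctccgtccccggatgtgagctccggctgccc
The upstream Cacna1c window and the Cacna2d1 window each hold a half-site, and the other 2 hold none. Over windows of 300 bases (250 before and 50 after a start) the half-site was in 4 of 10 windows of these genes (Cacna1b, Cacna1c upstream, Cacna1i and Cacna2d1) and in 20.8% of all 32851 windows. No window of these genes held the full CRE (TGACGTCA, 1.79% of all windows), the AP-1 letters (TGANTCA, 7.81%), the EGR letters (GCGTGGGCG, 0.612%), the CArG box (1.63%) or the MEF2 motif (3.19%). Both strands were searched, and each full CRE also counts as a half-site. A match of letters is a description of the window and says nothing about binding. The 4 windows shown differ in base composition over 300 bases: G and C made up 87.3% of the internal Cacna1d window, 81.3% of the internal Cacna1c window, 80.0% of the Cacna2d1 window and 51.3% of the upstream Cacna1c window. The median over all windows was 52.7%.

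Levels were compared between genes as TPM, which scales counts by transcript length and library size. In resting DIV7 neurons Cacna2d1 was at 85.9 and 80.7 TPM and Cacna1a at 83.6 and 79.7 TPM, and the ranges of these highest members overlapped. Cacna1b followed at 64.7 and 64.0 TPM, with Cacna1e at 64.3 and 57.5 TPM and Cacna1h at 56.3 and 58.2 TPM. Cacna1b overlapped with Cacna1e, and Cacna1e with Cacna1h. Cacna1g (35.8 and 41.5 TPM) and Cacna1c (31.5 and 32.3 TPM) stood apart from the genes above and below them. The lowest were Cacna2d3 (18.5 and 18.2 TPM), Cacna1d (17.9 and 18.5 TPM) and Cacna1i (11.5 and 21.0 TPM), which overlapped.

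In resting NT neurons at DIV18 the order differed. Cacna1a was highest at 69.8 and 51.5 TPM and did not overlap with the next gene. Cacna1b (29.7 and 34.3 TPM) and Cacna1g (33.2 and 30.6 TPM) overlapped, ahead of Cacna1i (26.1 and 28.7 TPM), Cacna2d1 (23.9 and 24.7 TPM) and Cacna1e (20.2 and 19.6 TPM). Cacna1c (18.6 and 17.8 TPM) overlapped with Cacna2d3 (19.9 and 14.0 TPM). Cacna1h at 7.03 and 9.55 TPM and Cacna1d at 4.69 and 3.97 TPM were lowest. When only protein-coding transcripts were summed, 2 of 10 genes kept their rank at DIV7 and 8 of 10 in NT. By CPM per length of the longest transcript, 6 and 3 kept it. In the protein-coding sum Cacna1d was the lowest gene at both ages.

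Between the ages the T-type gene Cacna1h had the largest ratio of TPM. Its 4 DIV7 libraries were at 48.7 to 58.2 TPM and its 20 DIV18 libraries at 4.33 to 10.6 TPM, a ratio of means of 7.12. Cacna2d1 (80.7 to 101 TPM against 15.7 to 27.3 TPM, ratio 4.05) and Cacna1d (17.9 to 22.9 TPM against 2.90 to 7.08 TPM, ratio 4.04) also lay apart. Cacna1e, Cacna1b, Cacna1c and Cacna1a lay apart with ratios of 2.63, 2.24, 1.64 and 1.52. Cacna1g, Cacna1i and Cacna2d3 overlapped between ages, with ratios of 1.24, 0.615 and 0.963.

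The comparison of ages depended on the scale. In CPM, which is not divided by length and was normalised separately at each age, Cacna1i was at 50.3 to 79.4 at DIV7 and at 177 to 261 at DIV18. Cacna1g was at 69.4 to 85.3 CPM at DIV7 and at 171 to 248 CPM at DIV18, and Cacna2d3 at 32.5 to 35.3 CPM and 54.4 to 104 CPM. These 3 genes were thus lower at DIV7 with no overlap in CPM, although they overlapped in TPM. Cacna1a and Cacna1c turned direction: their means were 212 and 149 CPM at DIV7 and 273 and 201 CPM at DIV18. Cacna1c lay apart in CPM as well, at 134 to 161 CPM against 163 to 224 CPM, while Cacna1a overlapped. Cacna1h was higher at DIV7 on both scales, at 122 to 138 CPM against 44.3 to 75.3 CPM. Within the T-type genes, Cacna1h made up 48.2% to 58.1% of their summed TPM in DIV7 libraries and 8.17% to 17.5% in DIV18 libraries. For Cacna1d the class of transcript mattered too. Retained-intron transcripts held 78.1% and 73.9% of its counts in resting DIV7 libraries and 17.0% to 41.7% in resting DIV18 libraries. Its protein-coding transcripts were lower at DIV7 at rest, at 0.75 and 0.01 CPM against 9.04 to 23.7 CPM. Under KCl they were at 23.6 and 23.4 CPM against 7.27 to 26.8 CPM, which overlapped.

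RNA was selected for poly(A) tails at DIV7, whereas at DIV18 total RNA was depleted of ribosomal RNA. Age and library preparation therefore cannot be told apart, and no test of levels was made between ages. The share of all genes that lay apart between the ages was not counted.

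**Figure D1:**
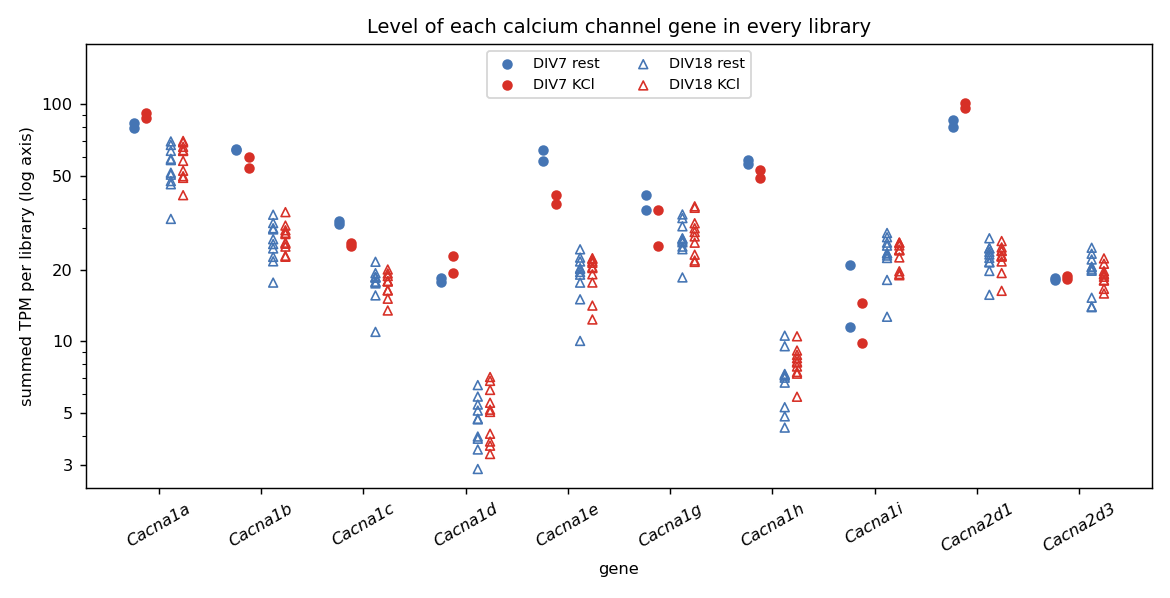
Summed TPM of each gene (log axis) in every library; filled circles are the 4 DIV7 libraries, open triangles the 20 DIV18 libraries, blue at rest and red under KCl. Cacna1h lies at 48.7 to 58.2 TPM at DIV7 and at 4.33 to 10.6 TPM at DIV18, while Cacna2d3 overlaps between the ages.

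The response to KCl at DIV7 was tested next. In that comparison 5 of the 10 genes were called (edgeR, adjusted p under 0.05), beside 17.0% of the 19822 genes tested. Cacna1a, Cacna1d and Cacna2d1 rose, and Cacna1c and Cacna1e fell. The largest change was in Cacna1d, at 1.46-fold. In these 5 genes, and in no other of the 10, the libraries of the 2 states did not overlap. Both KCl libraries lay above both resting ones in 3 genes, beside 28.5% of all genes, and below in 2, beside 30.7%. The median of the 10 log2 fold changes was -0.02, and that of all genes tested was within 0.01 of 0.

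Among the genes for high-voltage pores, the P/Q-type gene Cacna1a was at 203 and 193 CPM at rest and at 227 and 227 CPM under KCl. Both KCl libraries were above both resting libraries, by 0.19 on the log2 scale (SE 0.0447, edgeR adjusted p = 0.0274). The call was lost whichever of the 4 libraries was left out: resting replicate 1 (adjusted p = 0.0553), resting replicate 2 (0.133), KCl replicate 1 (0.0914) or KCl replicate 2 (0.0842). It was also lost with length offsets (0.0783). The N-type gene Cacna1b was at 241 and 244 CPM at rest and at 226 and 247 CPM under KCl, which overlapped.

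The R-type gene Cacna1e was at 309 and 294 CPM at rest and at 264 and 251 CPM under KCl. It fell by 0.23 on the log2 scale (SE 0.0470, edgeR adjusted p = 0.0184), with no overlap. Without resting replicate 1 or KCl replicate 2 Cacna1e was not called (adjusted p = 0.0914 and 0.0754). Summed TPM of Cacna1e was at 64.3 and 57.5 at rest and at 41.7 and 38 under KCl. With offsets from the effective lengths of the transcripts, the fall was -0.57 on the log2 scale (adjusted p = 0.00557).

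The L-type genes moved in opposite directions. Cacna1c, the main L-type pore of the brain, was at 160 and 161 CPM at rest and at 134 and 140 CPM under KCl. It fell by 0.23 on the log2 scale (SE 0.0463, edgeR adjusted p = 0.018). The call was lost without resting replicate 1, resting replicate 2 or KCl replicate 1 (adjusted p = 0.0763, 0.0758 and 0.103), and with offsets for GC content (0.0517). By transcript, the fall lay with Cacna1c-207, which starts 178 bases after the upstream RefSeq start: it was at 108 and 106 CPM at rest and at 85.3 and 85.2 CPM under KCl. The 2 transcripts that start near the internal start, Cacna1c-203 and Cacna1c-216, summed to 44.3 and 45.9 CPM at rest and to 44.2 and 49.0 CPM under KCl, which overlapped. These sums were not tested, and the split of reads between transcripts is the estimate of the authors' counting program.

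Cacna1d, an L-type pore that opens at more negative voltages than Cacna1c, was at 41.9 and 43.5 CPM at rest and at 58.8 and 65.6 CPM under KCl. It rose by 0.54 on the log2 scale (SE 0.0709, edgeR adjusted p = 0.00387). The call held whichever library was left out (adjusted p = 0.00119 to 0.0276). It was lost with length offsets, at 0.26 on the log2 scale (adjusted p = 0.126).

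The transcripts of Cacna1d behind that rise differed between states. At rest, the gene's protein-coding transcripts held 21.4 and 0.13 estimated counts in the 2 libraries, and under KCl 697 and 643. In CPM they were at 0.75 and 0.01 at rest and at 23.6 and 23.4 under KCl. The resting DIV18 libraries, normalised separately, were at 9.04 to 23.7 CPM. Cacna1d-207 and Cacna1d-201, which start 477 and 495 bases after the internal RefSeq start, had under 1 count in each resting library, and 316 and 394 counts and 200 and 169 counts under KCl. The transcript Cacna1d-208, annotated as a target of nonsense-mediated decay and starting at that RefSeq start, was at 7.25 and 9.97 CPM at rest and at 9.43 and 11.5 CPM under KCl, which overlapped. Retained-intron transcripts were at 32.7 and 32.1 CPM at rest and at 24.5 and 27.8 CPM under KCl, lower in both KCl libraries. Most of that was Cacna1d-212, a transcript of 17 exons that lies in the 3′ part of the gene (chr14:30039939-30082758 on GRCm38).

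**Figure D2:**
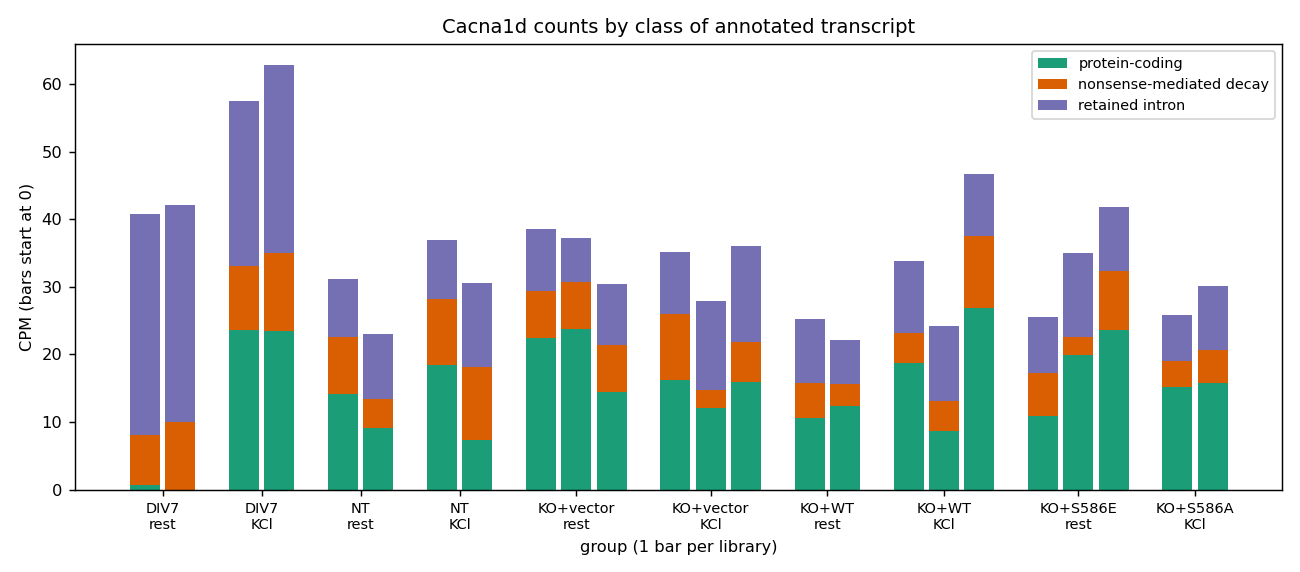
CPM of Cacna1d (linear axis from 0, 1 bar per library) split by the annotated class of its transcripts, without 1 transcript of another class. Protein-coding transcripts are near 0 in both resting DIV7 libraries, are at 23.6 and 23.4 CPM in the DIV7 KCl libraries, and are present in every DIV18 library.

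In a fit of protein-coding transcripts alone, made after these values had been seen, 12.5% of genes were called at DIV7. Cacna1d passed its filter on low counts through the KCl libraries, so neither a p nor a fold is given for it. Cacna1d-212 shares exons with the coding transcripts, and whether the KCl libraries differ in coding RNA or in how shared reads were assigned was not tested. Exons of Cacna1d also overlap Chdh on the opposite strand, which had 6 to 77 counts per library.

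None of the T-type genes was called at DIV7. Cacna1g was at 72.5 and 84.1 CPM at rest and at 69.4 and 85.3 CPM under KCl. Cacna1h was at 125 and 133 CPM at rest and at 122 and 138 CPM under KCl. Cacna1i was at 60.1 and 79.4 CPM at rest and at 50.3 and 74.5 CPM under KCl. In each of the 3 genes replicate 2 was above replicate 1 in both states, and the states overlapped. With the replicate number as a block Cacna1i was called lower (log2 fold change -0.17, edgeR adjusted p = 0.0215), as it was without KCl replicate 2 (-0.47, adjusted p = 0.0429). Its log2 fold change was positive without resting replicate 2 (0.05) or KCl replicate 1 (0.10).

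The alpha2delta gene Cacna2d1 had the highest CPM of the 10 genes in the KCl libraries. It was at 283 and 267 CPM at rest and at 347 and 339 CPM under KCl, with no overlap. It rose by 0.32 on the log2 scale (SE 0.0446, edgeR adjusted p = 0.00488), and the call held whichever library was left out (adjusted p = 0.00589 to 0.0251). Cacna2d3 was at 33.9 and 34.6 CPM at rest and at 32.5 and 35.3 CPM under KCl, which overlapped.

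**Figure D3:**
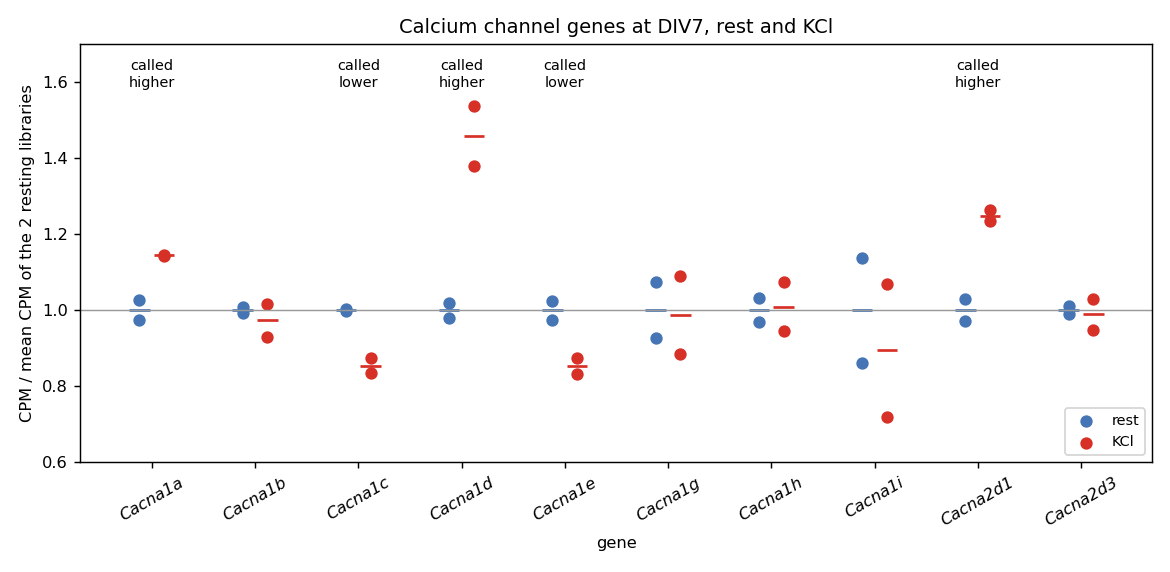
CPM of each gene in the DIV7 libraries divided by the mean of the 2 resting libraries (points are libraries, short lines are group means). Cacna1a, Cacna1d and Cacna2d1 lie above their resting libraries under KCl and Cacna1c and Cacna1e below.

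Other genes of the pathway were read from lists. None of 10 other channel subunits (the beta subunits, the remaining alpha1 and alpha2delta subunits, Cacng1 and Cacng6) and none of 6 TARP gamma subunits was called in this comparison. Of the regulators and partners, those described here were called higher: Rem2 (28.7 to 41.0 CPM, log2 fold change 0.51, adjusted p = 0.00879) and Gem (1.37 to 3.32 CPM, 1.26, adjusted p = 0.0107), both small GTPases that inhibit these channels, and Rims1, an active-zone scaffold (0.32, adjusted p = 0.00497). Of 14 tested genes of calcium release and extrusion 2 were called, beside 17.0% of all genes tested. Both were higher: the ryanodine receptor Ryr2 (0.20, edgeR adjusted p = 0.0275) and the pump Atp2a2 (0.14, edgeR adjusted p = 0.0454). All 7 early-response genes of the check list were called higher. Astrocyte markers summed to 517 to 584 CPM at rest and 489 to 499 CPM under KCl at DIV7, and 2 of 6 were called lower; their part in the falls above was not tested.

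At DIV18 the same stimulus gave no call among the 10 genes in NT, in KO with vector or in KO with WT. The share of all genes called was also small in these comparisons, at 0.00955%, 0.0716% and 0.043%. The early-response check was called in 1, 6 and 4 of 7 genes. In NT, both KCl libraries lay above both resting libraries for Cacna1a and Cacna1c, beside 16.7% of all genes, and below for Cacna1i, beside 16.8%. Cacna1a was at 299 and 235 CPM at rest and at 316 and 335 CPM under KCl, with a log2 fold change of 0.29 (SE 0.131, unadjusted p = 0.0409 and adjusted p = 1, edgeR). Cacna1d was at 31.5 and 23.3 CPM at rest and at 36.9 and 30.6 CPM under KCl, which overlapped. Cacna2d1, called at DIV7, was at 158 and 168 CPM at rest and at 152 and 170 CPM under KCl.

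In KO with vector, Cacna1h was at 44.3 to 60.7 CPM at rest and at 62.8 to 69.7 CPM under KCl, with no overlap and a log2 fold change of 0.33 (SE 0.122, edgeR adjusted p = 0.364). Cacna1c was lower under KCl with no overlap, at 211 to 221 CPM and 195 to 202 CPM (log2 fold change -0.12, adjusted p = 0.628). Groups lay apart in this way for 1 gene that was higher under KCl, beside 8.21% of all genes, and for 2 that were lower, Cacna1c and Cacna2d3, beside 7.49%. In KO with WT all 10 log2 fold changes were positive, from 0.01 to 0.57, while the median of all genes was within 0.01 of 0, and none was called. Without resting WT replicate 1, 5 of the 10 were positive. The largest, in Cacna1d, was between 25.2 and 22.2 CPM at rest and 34.8, 24.2 and 46.7 CPM under KCl, which overlapped. Cacna1e and Cacna2d1 lay higher under KCl with no overlap, beside 11.3% of all genes, and none lay lower, beside 10.4%.

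The responses themselves were compared, each being a difference within 1 age and library preparation. Between the DIV7 response and the NT response at DIV18, 2.34% of genes were called and none of the 10. The differences were 0.33 for Cacna2d1 (SE 0.105, edgeR adjusted p = 0.160), -0.31 for Cacna1e (SE 0.109, adjusted p = 0.200), -0.31 for Cacna1c (SE 0.0933, adjusted p = 0.144) and 0.24 for Cacna1d (SE 0.200, adjusted p = 0.631) on the log2 scale. With length offsets Cacna1e was called in it (-0.75, adjusted p = 0.0252). Between KO with vector and NT, and between KO with WT and KO with vector, no gene of all 20940 was called by edgeR, with 1845 and 768 at an unadjusted p under 0.05. DESeq2 called 9 and 1.

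Loss of Smarcc2 was examined at rest first. Between KO with vector and NT, 2 of the 10 genes were called, beside 5.90% of all 20940 genes tested. The T-type gene Cacna1g fell and the alpha2delta gene Cacna2d3 rose. Cacna1g was at 247 and 244 CPM in NT and at 194, 193 and 196 CPM in KO with vector, with no overlap. Its log2 fold change was -0.34 (SE 0.0833, edgeR adjusted p = 0.0217). Cacna1g was lost without NT replicate 1 (adjusted p = 0.0918), NT replicate 2 (0.199), KO replicate 1 (0.0565) or KO replicate 2 (0.0508). It was also lost with length offsets (-0.24, 0.350), with GC offsets (-0.18, 0.314) and when only these groups were fitted (0.0867).

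Cacna2d3 was at 75.5 and 54.4 CPM in NT and at 104, 86.3 and 90.3 CPM in KO with vector, with no overlap. It rose by 0.52 on the log2 scale (SE 0.121, edgeR adjusted p = 0.0158). The call was lost without NT replicate 2, the lower NT library (0.31 on the log2 scale, adjusted p = 0.401), without KO replicate 1 (adjusted p = 0.0614) and when only these groups were fitted (0.113). Among the other genes, Cacna1h was at 59.3 and 75.3 CPM in NT and at 52.7, 60.7 and 44.3 CPM in KO with vector, which overlapped (log2 fold change -0.35, adjusted p = 0.136). Cacna1a, Cacna1b, Cacna1c, Cacna1d, Cacna1e, Cacna1i and Cacna2d1 had log2 fold changes from -0.14 to 0.40, with none called. Without overlap, Cacna1c and Cacna2d3 lay higher in KO, beside 16.1% of all genes, and Cacna1g and Cacna1i lower, beside 18.2%.

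Markers of other cells moved with this comparison. Oligodendrocyte-lineage markers (7 genes) summed to 195 and 205 CPM in resting NT and to 133 to 151 CPM in resting KO with vector, with 4 called lower. Sox10, which defines that lineage, had no count in any resting KO library with vector, and Pdgfra, called lower, was at 0.661 CPM there. Under KCl each of the 7 markers, Sox10 included, had counts in at least 1 KO library with vector. Astrocyte markers summed to 1363 and 1604 CPM in NT and to 899 to 1249 CPM in KO, with Slc1a2 called lower. The 3 of 6 microglia markers that passed the count filter summed to 6.61 and 7.60 CPM in NT and to 3.55 to 3.82 CPM in KO. Of these markers Csf1r was called lower. Of all 6 markers, 2 were at 0 in every such KO library. The S586A group also had 2 at 0 in every library, and WT and S586E at rest had 1 each. Of 5 excitatory markers, which summed to 1938 and 1947 CPM in NT and 1886 to 2117 CPM in KO, Tbr1 and Slc17a6 were called higher. The part of these cells in the changes of Cacna1g and Cacna2d3 was not tested.

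Under KCl none of the 10 genes was called between KO with vector and NT, beside 2.67% of all genes. Cacna1g was at 248 and 239 CPM in NT and at 191, 197 and 210 CPM in KO, again with no overlap, and its log2 fold change was -0.29 (SE 0.0834, edgeR adjusted p = 0.0736). Cacna1g was called there with DESeq2 (adjusted p = 0.0332) and with the replicate number as a block (adjusted p = 0.0333). Cacna2d3 was at 71.7 and 81.9 CPM in NT and at 81.5, 82.1 and 85.3 CPM in KO, which overlapped. Cacna1a was at 316 and 335 CPM in NT and at 253 to 272 CPM in KO, with no overlap (log2 fold change -0.30, adjusted p = 0.198). In all, 3 genes lay lower in KO with no overlap (Cacna1a, Cacna1c and Cacna1g), beside 18.5% of all genes, and none higher, beside 17.3%.

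Of the other lists, Cacnb1, a beta subunit (log2 fold change -0.25, edgeR adjusted p = 0.0245), and Stac2, an adaptor of L-type channels (-0.45, adjusted p = 0.0213), were called lower in KO with vector at rest, and the sodium-calcium exchanger Slc8a3 was called higher (0.54, adjusted p = 0.035). That was 1 of 9 tested channel subunits, 1 of 14 regulators and 1 of 14 genes of release and extrusion. Under KCl the calls were all lower: the alpha2delta gene Cacna2d2 (15.8 to 9.17 CPM, -0.79, adjusted p = 0.0134), the TARP Cacng5 (-0.75, adjusted p = 0.0216), Stac2 (-0.47, adjusted p = 0.0281), Calm3 (-0.49, adjusted p = 0.0148) and the channel-binding scaffold Rimbp2 (-0.29, adjusted p = 0.0435). Markers moved with that comparison as well. Astrocyte markers summed to 1274 and 1762 CPM in NT and to 738 to 866 CPM in KO with vector, with 2 of 6 called lower. Neuron markers summed to 3518 and 3877 CPM in NT and to 3157 to 3200 CPM in KO, with Snap25 called lower, and inhibitory neuron markers to 299 and 308 CPM and 169 to 213 CPM, with none called. Of 7 oligodendrocyte-lineage markers 3 were called lower. Their part in these calls was not tested.

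Adding Smarcc2 back was read against the vector. At rest, KO with WT against KO with vector gave no call among the 10 genes, beside 0.0143% of all genes. The genes nevertheless lay to 1 side: 9 of 10 log2 fold changes were negative, with a median of -0.28 beside -0.01 over all genes. In 8 genes both WT libraries were below all 3 vector libraries, a pattern found in 12.4% of all genes. None lay above, beside 13.7%. Other lists had medians on the same side, with no gene called: excitatory neuron markers at -0.34 (4 of 5 negative), genes of calcium release and extrusion at -0.18 (10 of 14) and TARP subunits at -0.14 (4 of 6). Excitatory markers summed to 1839 and 2026 CPM in WT and to 1886 to 2117 CPM with vector, and their part in the result was not tested. The R-type gene Cacna1e was at 196 and 206 CPM in WT and at 301, 266 and 259 CPM with vector. Its log2 fold change was -0.46 (SE 0.0861, unadjusted p = 4.64e-05 and edgeR adjusted p = 0.0846). Cacna1e was called with DESeq2 (adjusted p = 0.00043), without the low-count filter (0.00149), with protein-coding transcripts only (0.0386), with GC offsets (0.0487), with the replicate block (0.0499) and without vector replicate 3 (0.0391). Cacna1c was at 163 and 184 CPM in WT and at 211 to 221 CPM with vector (-0.31, adjusted p = 0.212). Cacna2d3 was at 77.9 and 64.8 CPM in WT and at 86.3 to 104 CPM with vector (-0.39, adjusted p = 0.222). Cacna1h was the exception, at 52.4 and 64.7 CPM in WT and 44.3 to 60.7 CPM with vector.

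WT replicate 1 at rest stood low among the DIV18 libraries. It had the lowest TPM of all 20 libraries in 8 of the 10 genes and the lowest CPM in 4. The share of all genes with their lowest value in this library was not counted. Without WT replicate 1 the median of the 10 log2 fold changes against vector was -0.20, with 8 negative. Without WT replicate 2 the median was -0.30, with all 10 negative.

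The S586E substitution was sequenced at rest only. Against vector none of the 10 genes was called, beside 0.0191% of all genes, and the median log2 fold change was 0.04. Cacna1g was at 238, 233 and 224 CPM with S586E and at 194, 193 and 196 CPM with vector, with no overlap (log2 fold change 0.25, SE 0.0751, edgeR adjusted p = 0.424). The NT libraries were at 247 and 244 CPM. Cacna2d3 was at 97.4, 89.3 and 87.5 CPM with S586E and overlapped with vector. Cacna1g and Cacna2d1 were the 2 genes that lay higher than vector with no overlap, beside 5.62% of all genes, and none lay lower, beside 5.47%.

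Against WT, S586E gave no call among the 10 genes and none among all 20940 by edgeR (0.00% called), with 2696 at an unadjusted p under 0.05. DESeq2 called 316 genes, Cacna1c, Cacna1e and Cacna1g among them, and the replicate block called Cacna1e. Here 9 of 10 log2 fold changes were positive, with a median of 0.33 beside 0.01 over all genes. In 8 genes the 3 S586E libraries lay above both WT libraries, beside 14.9% of all genes, and in none below, beside 16.4%. Medians of other lists were positive too, with no gene called: excitatory neuron markers at 0.52 (5 of 5 positive), TARP subunits at 0.30 (4 of 6), other channel subunits at 0.27 (5 of 9) and neuron markers at 0.18 (6 of 6). Neuron markers summed to 3646 to 4213 CPM with S586E and to 3259 and 3478 CPM with WT, which did not overlap. Astrocyte sums lay higher too, at 1153 to 1281 CPM against 881 and 1074 CPM (median log2 fold change -0.07, 2 of 6 positive). So did oligodendrocyte-lineage sums, at 140 to 162 CPM against 109 and 135 CPM (median 0.25, 4 of 7 positive). Fibroblast and vessel sums lay lower with no overlap, and excitatory, inhibitory and microglia sums overlapped. The part of these cells in the result was not tested. Cacna1e was at 294, 265 and 267 CPM with S586E and at 196 and 206 CPM with WT (log2 fold change 0.45, SE 0.0861, edgeR adjusted p = 0.103). This comparison and that of WT with vector share the 2 WT libraries. Without WT replicate 1 the median was 0.27.

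Against NT, S586E gave 1 call among the 10 genes, beside 2.78% of all genes. Cacna2d3 rose by 0.49 on the log2 scale (SE 0.121, edgeR adjusted p = 0.0363). The call was lost without NT replicate 2 (0.28, adjusted p = 0.672), without any 1 S586E library (adjusted p = 0.126, 0.0746 and 0.0581), with length offsets (0.0733) and when only these groups were fitted (0.0651). Cacna1c, Cacna1e and Cacna2d3 lay above NT with no overlap, beside 15.9% of all genes, and Cacna1g below, beside 19.0%. The comparison shares its NT libraries with that of vector and NT, in which Cacna2d3 was also called. WT gave no call against NT at rest, beside 0.105% of all genes, nor under KCl, beside 0.201%. Cacna2d3 in WT at rest overlapped with NT, and Cacna1g in WT, at 180 and 197 CPM, lay below NT (log2 fold change -0.38, adjusted p = 0.136). WT lay below NT with no overlap in 7 genes at rest, beside 20.9% of all genes, and in 5 under KCl, beside 14.3%. It lay above in none, beside 19.5% and 13.8%. Neuron markers summed to 3259 and 3478 CPM in resting WT and 3525 and 3578 CPM in NT. Resting astrocyte (881 and 1074 CPM) and oligodendrocyte-lineage sums (109 and 135 CPM) also lay below NT. Under KCl neuron markers summed to 3326 to 3375 CPM in WT and 3518 and 3877 CPM in NT. Astrocyte, excitatory, inhibitory and microglia sums lay lower there too, and no marker sum lay above NT without overlap in either state. The part of these cells was not tested. Of the other lists, the pump Atp2b1 was called higher in S586E against NT (0.35, adjusted p = 0.0381). Oligodendrocyte-lineage markers summed to 140 to 162 CPM in S586E, with 3 of 7 called lower than in NT, and their part was not tested.

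**Figure D4:**
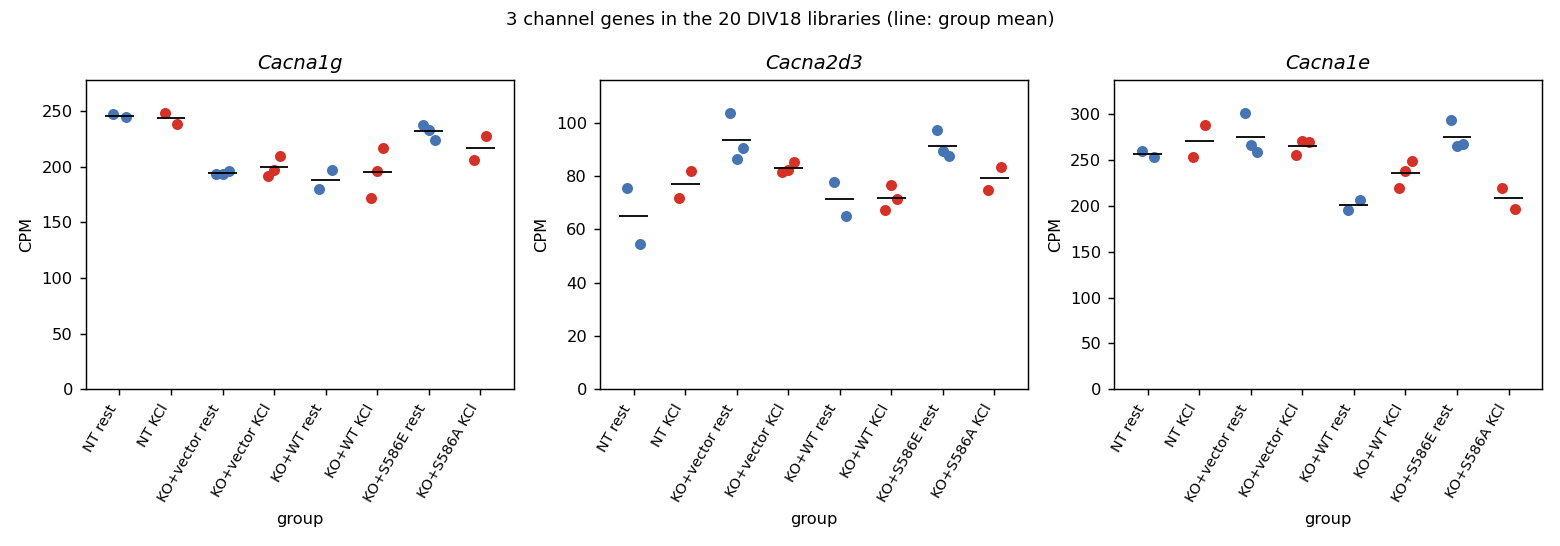
CPM of Cacna1g, Cacna2d3 and Cacna1e (axes from 0) in the 20 DIV18 libraries, blue at rest and red under KCl, with a line at each group mean. Resting NT libraries lie at 247 and 244 CPM of Cacna1g and resting KO libraries with vector at 193 to 196 CPM.

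The S586A substitution was sequenced under KCl only. No gene of the 10 was called against vector, against WT or against NT, beside 0.00955%, 0.00% and 0.43% of all genes. edgeR called no gene of all 20940 against WT, with 1824 at an unadjusted p under 0.05, and DESeq2 called 19. Cacna1e had its lowest group mean under KCl here, at 220 and 197 CPM, against 256, 270 and 269 CPM with vector (log2 fold change -0.35, SE 0.0860, edgeR adjusted p = 0.133, called with DESeq2). Against NT, at 253 and 288 CPM, its log2 fold change was -0.38 (adjusted p = 0.0886, called with DESeq2). It overlapped with WT under KCl, whose lowest library was at 219 CPM. S586A lay below vector with no overlap in 2 genes (Cacna1e and Cacna1i), beside 16.1% of all genes, and above in none, beside 15.9%. It lay below NT in 5, beside 22.3%, and above in none, beside 20.2%. Neuron markers summed to 3191 and 3432 CPM with S586A and 3518 and 3877 CPM in NT. Inhibitory (171 and 220 against 299 and 308 CPM) and astrocyte sums (874 and 997 against 1274 and 1762 CPM) were lower too. So were oligodendrocyte-lineage and microglia sums, while excitatory sums and fibroblast and vessel sums overlapped. The part of these cells was not tested. Against WT no gene of the 10 lay apart, beside 11.9% of all genes higher and 13.7% lower. In the KCl libraries WT against vector gave no call, beside 0.00955% of all genes, and its log2 fold changes were from -0.21 to 0.06. WT lay below vector there with no overlap in 4 genes (Cacna1e, Cacna1h, Cacna1i and Cacna2d3), beside 5.04% of all genes, and above in none, beside 5.02%.

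**Figure D5:**
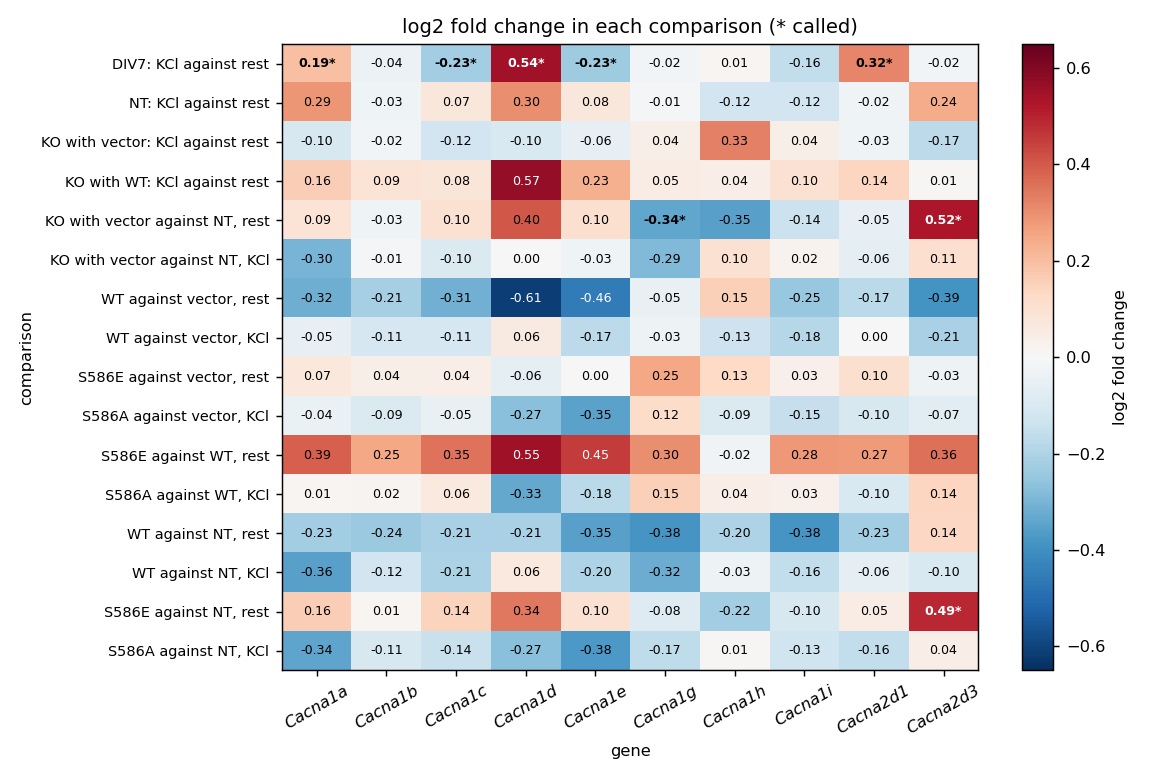
log2 fold change of each gene (columns) in each comparison between groups (rows), red higher and blue lower in the group named first; an asterisk marks a call at an adjusted p under 0.05 by edgeR. The 8 calls are 5 at DIV7, 2 in KO with vector against NT at rest and 1 in S586E against NT at rest; rows that share a group share its libraries.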

How the data were processed

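RNA was sequenced from 24 libraries, 4 at DIV7 and 20 at DIV18. Per the file headers, the authors deposited estimated counts, TPM and an effective length for each of 142552 transcripts. Per the submitters' processing notes FastQC, cutadapt and kallisto were used. Their versions, the genome build and the strand setting are not given in the sources used here. The deposited estimated counts were summed per gene over GENCODE M21 names, which matched 99.21% of transcripts, and rounded to whole numbers. The deposited TPM values were summed likewise to compare genes. CPM used TMM factors.

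Groups were compared with edgeR 4.0.16 (R 4.3.3): filterByExpr, quasi-likelihood test and Benjamini-Hochberg adjustment over all genes, with a call at an adjusted p under 0.05. The 4 DIV7 libraries were fitted alone, with 2 residual degrees of freedom, and the 20 DIV18 libraries together, with 12. Each SE given with an edgeR test is the absolute log2 fold change divided by the square root of its F statistic. It is not a separate estimate. The fits were tested on simulated data. Alternatives were DESeq2 1.42.0, median-of-ratios factors, no filter, length and GC offsets, the replicate block, only the groups compared, and each library left out. A fit of protein-coding transcripts and crossed NT numbers were chosen after seeing the data.

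All 10 genes were described in every comparison, and of the other lists each called gene was named, apart from 1 result that is not reported here. The genes and lists were chosen with earlier results of these data known. In comparisons with 3 same-numbered pairs, the deviations of every pair correlated positively. These were KO with vector under KCl against rest (0.166 to 0.367), WT against vector under KCl (0.239 to 0.404) and S586E against vector (0.232 to 0.412). With 2 pairs the correlation ran from -0.17 (NT under KCl against rest) to 0.392 (WT against NT under KCl). The main tests did not use replicate numbers, and the replicate block was an alternative. Promoter windows came from RefSeq on GRCm38.p6; none was used for Cacna1a, Cacna1g or Cacna1h.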

Additional observations from a re-analysis of the deposited data

How the results depend on the processing

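No call reversed direction under any alternative run. The number of the 10 genes called is given here against its value in the report. At DIV7 (5) it was 3 with length offsets and 2 to 4 with a library left out. GC offsets lost the DIV7 call of Cacna1c. In KO with vector against NT at rest (2) it was 4 with no filter, 1 with length offsets, 1 with GC offsets, 0 with only the groups compared and 0 to 2 with a library left out. In S586E against NT (1) it was 0 with length offsets, 0 with only the groups compared and 0 to 1 with a library left out. In WT against vector at rest (0) it was 3 with no filter, 1 with GC offsets, 1 with DESeq2, 1 with protein-coding transcripts only, 1 with the replicate block and 0 to 1 with a library left out. In S586E against WT (0) it was 4 with no filter, 3 with DESeq2 and 1 with the replicate block. In WT against NT at rest (0) it was 2 with no filter, 2 with DESeq2 and 1 with the replicate block. In KO with vector against NT under KCl (0) it was 1 each with no filter, DESeq2 and the replicate block. In WT against NT under KCl (0) it was 2 with no filter and 1 with DESeq2, and in S586A against NT (0) it was 1 with each. DESeq2 called 1 in S586A against vector (0). No filter called 1 in the KCl response of KO with WT (0) and 1 in its difference from the response with vector (0). The difference between the DIV7 and NT responses (0) was 1 with length offsets and 1 with protein-coding transcripts only. The cause of these moves was not tested. Same-numbered NT libraries deviated in opposite directions (correlation -0.17), and with crossed numbers 8 genes were called in the NT response, none of them channel genes. At DIV7 the replicate block also called Cacna1i (adjusted p = 0.0215 with edgeR, log2 fold change -0.17), and it changed no further call among the 10 genes. In these comparisons with 2 pairs the libraries share only a number. With 2 or 3 libraries in a group, and 2 residual degrees of freedom at DIV7, small changes may be missed.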

Other observations

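Transcript forms of several channel genes, as estimated by the authors' counting program, also differed between ages, which cannot be told apart from library preparation. Cacna1i-205, annotated as a target of nonsense-mediated decay, had under 1 count in each resting DIV7 library and made up 4.4% to 14.2% of Cacna1i in the resting DIV18 libraries. Cacna1b-201 had under 1 count in each DIV7 library and 10.9 to 521 counts in the resting DIV18 libraries. Cacna1e-203 held 96.0% and 96.4% of the R-type gene at rest at DIV7 and 81.3% to 90.7% at DIV18. Cacna2d1-205, which starts at the RefSeq start of the window shown, held 81.0% and 81.9% of Cacna2d1 at rest at DIV7 and 54.2% to 75.3% at DIV18.

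Across the 20 DIV18 libraries, which share depth, normalisation and groups, each gene was set beside 10729 genes by Pearson's r of log CPM. The closest to Cacna2d3 were Blcap (0.944), Kcns2 (0.940) and Nalcn (0.935). Cacna1e lay closest to Slc22a23 (0.921) and Grin2b (0.883), and Cacna1c to Adgrl1 (0.921) and Celsr2 (0.885). Cacna1g lay closest to Stk11ip (0.920) and Nlgn2 (0.914), and Cacna1a to Nfasc (0.911). Cacna1h lay closest to Trpm2 (0.841), Cacna2d1 to B4galt6 (0.828), Cacna1b to Cacng4 (0.807), Cacna1i to Slmap (0.807) and Cacna1d to Myo9a (0.801). Among the channel genes themselves r ran from -0.61 (Cacna1h with Cacna2d3) to 0.80 (Cacna1b with Cacna1i).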
